A study of Mus musculus with 23 samples.

Results

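Genes of canonical Wnt signaling were followed here through every library of the series. The 10 were chosen by symbol for their roles, with earlier results of these data known. They are the co-receptors *Lrp4*, *Lrp5* and *Lrp6*, the R-spondin receptors *Lgr4* and *Lgr6*, the receptor *Fzd1*, β-catenin itself (*Ctnnb1*), and *Axin2*, *Lef1* and *Nkd2*, which β-catenin switches on. All 10 of 10 were present in both count tables, which listed 15962 genes (2-week) and 15762 genes (single-bout), and all 10 passed the filter on low counts. RNA was sequenced from osteocyte-enriched cortical bone of tibiae, cleared of marrow and digested to strip surface cells, of wild-type C57BL/6 male mice aged 5 months. In every mouse the right tibia received a sub-optimal 8.25 N load and the left, contralateral tibia none, so that each nonloaded tibia comes from a mouse loaded on the other side. A library is a pool of 2 mice, of right tibiae or of left ones, taken 24 hours after the last bout. In the 2-week experiment (3 bouts a week) the 4 groups of 3 libraries were the nonloaded and the loaded tibiae of vehicle mice and those of L-BAIBA mice. Vehicle mice drank regular water, and L-BAIBA, a metabolite that contracting muscle releases, was given in the water at 100 mg/kg. In the single-bout experiment, where L-BAIBA was given for 5 days and the tibia was loaded once, the same groups had 3 libraries each except L-BAIBA nonloaded, which had 2.

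In canonical Wnt signaling a Wnt ligand brings a Frizzled receptor together with LRP5 or LRP6 at the cell surface. This stops a destruction complex built on Axin from marking β-catenin for degradation, and β-catenin then enters the nucleus and activates genes with TCF and LEF factors. LGR4 and LGR6 bind R-spondins and keep Frizzled receptors on the surface, while LRP4 anchors sclerostin, the osteocyte protein that blocks LRP5 and LRP6. In bone, loss of LRP5 lowers bone mass, and osteocytes use this pathway in their answer to mechanical load. *Axin2* and *Nkd2* act as brakes that the pathway induces on itself. *Lef1* is both a partner and a target of β-catenin and is also active in early B and T lymphocytes.

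By the files' mm10 coordinates, the genes lie apart from one another. *Lgr6* spans chr1:134986353-135105276 (- strand, 3623 bases of exon) and *Lgr4* chr2:109917647-110014257 (+ strand, 5060 bases). *Lrp4* is at chr2:91457531-91513901 (+), *Lrp5* at chr19:3584825-3686564 (-) and *Lrp6* at chr6:134446478-134566913 (-), with 9407, 5172 and 9366 bases of exon. *Fzd1* is at chr5:4753839-4758216 (-) and *Ctnnb1* at chr9:120933400-120960507 (+). Of the targets, *Lef1* spans chr3:131110297-131224357 (+), *Axin2* chr11:108920349-108950781 (+) and *Nkd2* chr13:73819328-73847631 (-). Counts were taken over the exons of each gene as a whole.

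The start regions of the members on which the results turn are shown to compare them for the TCF/LEF core CTTTGA. They are RefSeq windows of GRCm38.p6, from 250 bases before to 50 bases after a transcript start, 5′ to 3′ on the gene's own strand, in lower case with CTTTGA or its reverse complement TCAAAG in capitals. *Axin2* (chr11:108920099-108920398, + strand) and *Lgr6* (chr1:135105227-135105526, - strand) each had 1 window. *Lef1* had 4, of which the one farthest upstream (chr3:131110047-131110346, + strand) and one inside the gene (chr3:131156044-131156343, + strand) are given.
Axin2: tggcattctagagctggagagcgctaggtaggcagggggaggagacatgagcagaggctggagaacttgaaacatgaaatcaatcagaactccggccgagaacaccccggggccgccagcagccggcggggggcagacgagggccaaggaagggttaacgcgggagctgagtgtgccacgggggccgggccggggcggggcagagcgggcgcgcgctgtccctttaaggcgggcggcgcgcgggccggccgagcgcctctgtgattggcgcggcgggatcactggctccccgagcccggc
Lgr6: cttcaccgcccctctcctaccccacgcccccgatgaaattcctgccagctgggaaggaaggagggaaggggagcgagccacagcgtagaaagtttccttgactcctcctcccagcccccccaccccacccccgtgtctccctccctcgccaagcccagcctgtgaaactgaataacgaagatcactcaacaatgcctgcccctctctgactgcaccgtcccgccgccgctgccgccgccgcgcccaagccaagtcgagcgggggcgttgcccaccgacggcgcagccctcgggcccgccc
Lef1 upstream start: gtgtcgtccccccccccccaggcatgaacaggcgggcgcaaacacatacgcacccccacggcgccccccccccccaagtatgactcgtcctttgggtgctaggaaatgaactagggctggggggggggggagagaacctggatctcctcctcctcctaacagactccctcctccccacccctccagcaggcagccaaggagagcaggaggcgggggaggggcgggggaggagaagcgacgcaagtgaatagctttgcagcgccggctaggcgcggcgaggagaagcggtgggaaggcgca
Lef1 internal start: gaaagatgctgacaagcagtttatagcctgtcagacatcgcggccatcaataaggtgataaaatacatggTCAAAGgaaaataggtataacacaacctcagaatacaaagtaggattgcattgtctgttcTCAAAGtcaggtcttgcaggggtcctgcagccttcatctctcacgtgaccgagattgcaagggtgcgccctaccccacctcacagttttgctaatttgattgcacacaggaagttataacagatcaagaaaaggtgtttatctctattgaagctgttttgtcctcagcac
The core CTTTGA stood in 2 of the 11 windows found for 7 of the 10 members. These were the internal *Lef1* window, with 2 matches on the opposite strand that begin 180 and 120 bases before the start, and the *Fzd1* window (chr5:4758167-4758466, - strand), with 1. Of all 32851 windows of the same length, 16% held it on either strand. The windows shown for *Axin2*, *Lgr6* and the upstream start of *Lef1* lack these letters. A match is a description of the sequence only, and counts per gene do not separate transcripts of the different *Lef1* starts.

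The 2-week libraries held 6368289 to 18318951 counts in genes and the deeper single-bout libraries 17811949 to 37562527. Of 10 osteocyte markers, all were detected in every library, and their summed level after TMM scaling lay from 5220 to 24645 CPM (counts scaled to a common library size), which places osteocyte RNA in every library. Osteoblast markers summed to more than these in the 2-week libraries, between 28633 and 64369 CPM. Erythroid, neutrophil, B lineage, osteoclast, endothelial, cartilage and adipocyte markers were present too. The libraries are thus mixed, and levels of the members are not assigned to a cell type. Neutrophil markers summed to between 12968 and 31631 CPM in the 2-week libraries and reached 75671 CPM in single-bout L-BAIBA loaded replicate 2. In bulk RNA, fewer cells of a type and less RNA per cell cannot be told apart. Single-bout L-BAIBA loaded replicate 3 stood apart from its group in osteoblast markers (48216 CPM against 8912 and 6634 in replicates 1 and 2). Cartilage markers also spread widely in this group, from 97.8 to 1415 CPM with a median of 161 CPM. The libraries of the pool that gave single-bout L-BAIBA loaded replicate 2 and nonloaded replicate 1 were lowest in B lineage markers (60.4 and 56.5 CPM against 200 to 346 in the other 9 libraries). The median over the members in the comparisons that use these 3 libraries is given with and without them.

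Per kilobase of exon, *Ctnnb1* was the most abundant member in every group, and *Axin2* was the least abundant in each vehicle nonloaded group. In 2-week vehicle nonloaded tibiae the order was *Ctnnb1* (170 ± 7.96 CPM per kb, SD, n = 3), *Lrp5* (27.8 ± 3.20), *Lrp4* (19.7 ± 2.05), *Lrp6* (9.09 ± 1.13), *Lgr4* (8.53 ± 1.47), *Lgr6* (5.35 ± 0.781), *Fzd1* (3.63 ± 0.828), *Lef1* (3.30 ± 0.565), *Nkd2* (3.20 ± 1.02) and *Axin2* (1.17 ± 0.415). The single-bout vehicle nonloaded group had the same order, from 144 ± 17.2 CPM per kb for *Ctnnb1* to 0.920 ± 0.211 for *Axin2*. In the 2-week group the libraries of *Lrp6* and *Lgr4* overlapped, as did those of each pair of neighbours from *Lgr6* to *Nkd2*, so these neighbours are not ordered beyond their spread. *Lrp5* and *Lrp4* were separate in the 2-week but overlapped in the single-bout group. Over all libraries of an experiment, *Ctnnb1* lay above 98.2% (2-week) and 97.7% (single-bout) of the genes tested per kb, and *Axin2* above only 21.9% and 18.3%. *Axin2* rests on few reads, 29 to 176 per 2-week library and 87 to 230 per single-bout library, whereas *Ctnnb1* had at least 4449 in each.

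The members also differed in how far they varied. Across the 12 2-week libraries, *Ctnnb1* ranged from 566 to 864 CPM (coefficient of variation 12%), *Lrp6* from 69.8 to 116 CPM (15%) and *Lgr4* from 34.9 to 63.6 CPM (16.6%). *Axin2* ranged from 3.92 to 12.3 CPM (44.3%), *Lgr6* from 15.1 to 46.9 CPM (36.3%) and *Fzd1* from 11.2 to 32.0 CPM (34.3%). Vehicle loaded replicate 2 was the highest library for all 5 receptors of the LRP and LGR families and for *Fzd1* and *Ctnnb1*, but the lowest for *Lef1*. In the 11 single-bout libraries the widest ranges were those of *Lef1*, from 1.97 to 12.6 CPM (42.5%), and *Lgr6*, from 12 to 41.1 CPM (42.4%).

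**Figure D1:**
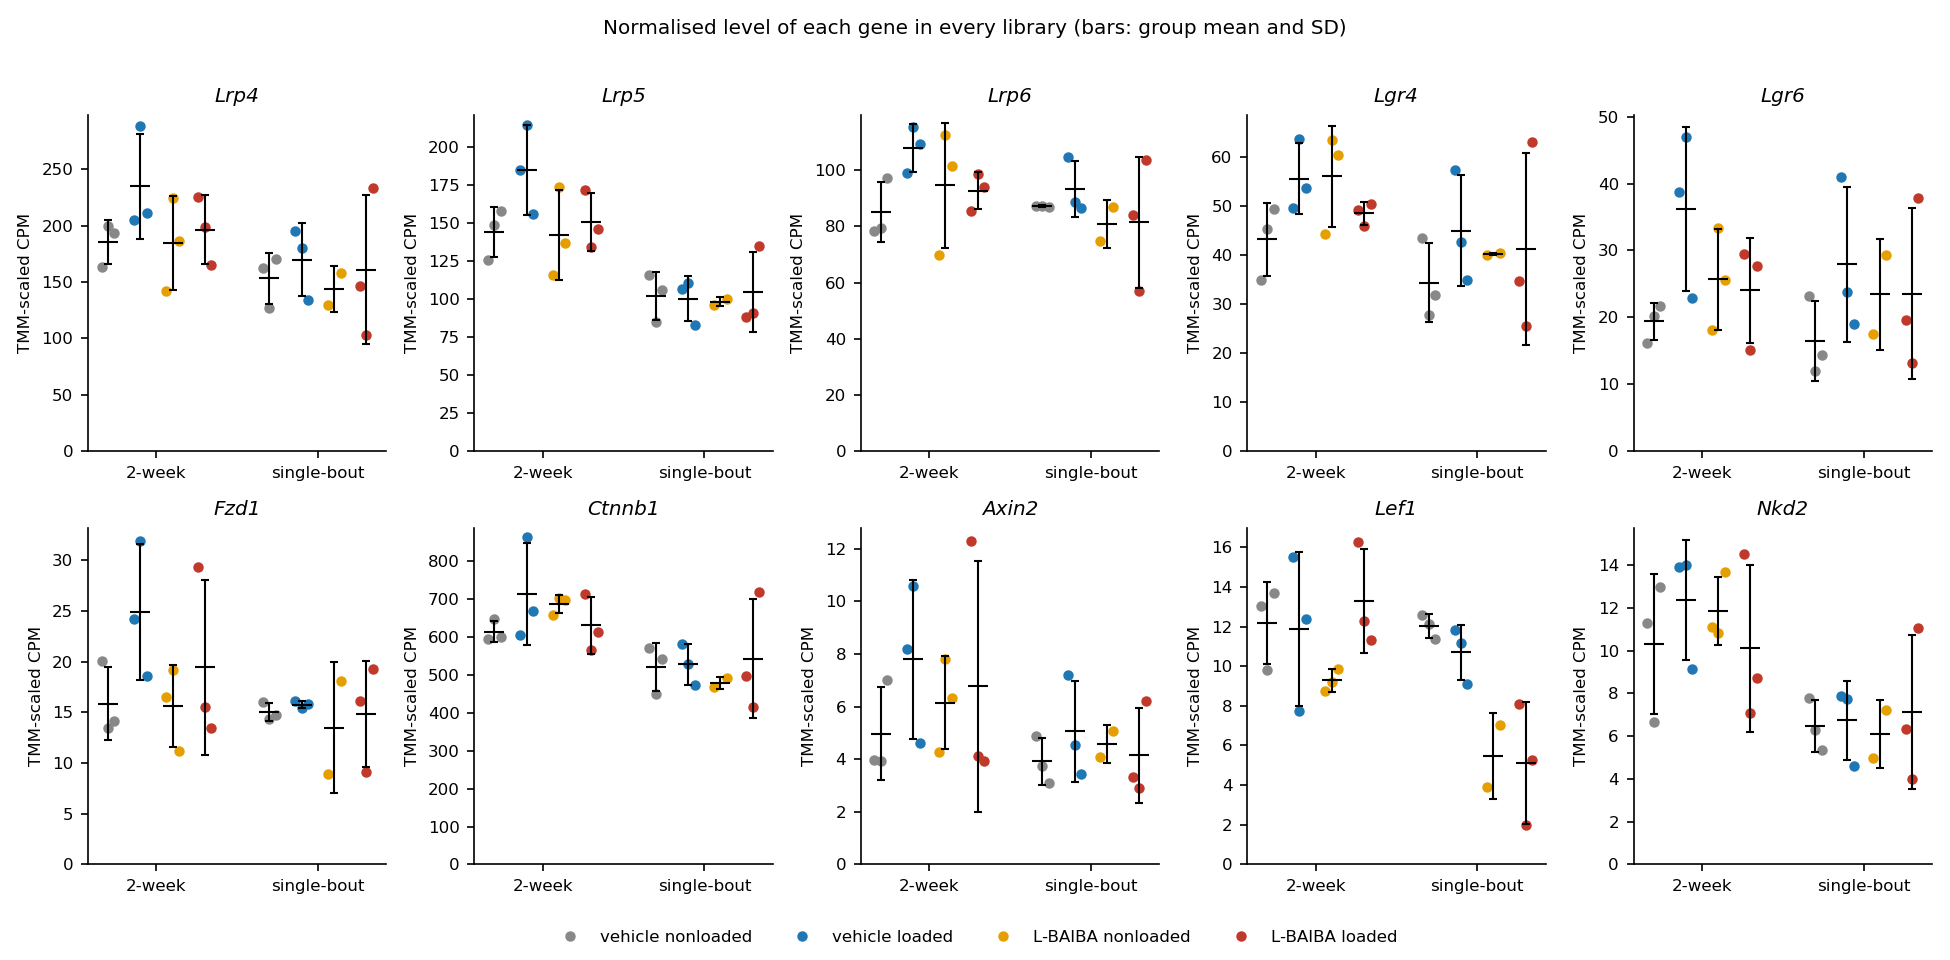
TMM-scaled CPM (y axis, from 0) of each of the 10 genes in every library, with 1 point per library, and the mean and SD of each group in black; colours give the 4 groups of the 2-week (left) and single-bout (right) experiment. *Lgr6* has 2 of 3 2-week vehicle loaded libraries above every other 2-week library, and all 5 single-bout L-BAIBA libraries lie below all 6 vehicle libraries in *Lef1*. Some of these libraries are the 2 tibiae of the same mouse pool.

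The first comparison asks what 2 weeks of sub-optimal loading alone did. *Lgr6* had the largest difference of the members. It was 16.3, 20.2 and 21.7 CPM in the vehicle nonloaded and 38.7, 46.9 and 23 CPM in the vehicle loaded libraries. The groups did not overlap, although loaded replicate 3 lay just above the nonloaded ones. The log2 fold change was 0.90 (SE 0.31, n = 3 against 3), with an unadjusted p under 0.05. Adjusted over all genes in the quasi-likelihood test of edgeR it did not pass (adjusted p = 0.475). Without vehicle loaded replicate 2 the value was 0.67 (SE 0.32), and with mouse pools as fixed blocks it was 0.72 (SE 0.37, adjusted p = 0.407). In both fits the unadjusted p was over 0.05. *Lgr4*, the other R-spondin receptor, was 34.9, 45.2 and 49.4 CPM without and 49.5, 63.6 and 53.6 CPM with loading. These groups barely separated, and its log2 fold change was 0.37 (SE 0.18, adjusted p = 0.490).

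The co-receptors gave smaller values of the same sign. *Lrp6* was 78.4, 79.6 and 97.4 CPM without and 98.9, 116 and 109 CPM with loading (log2 fold change 0.34, SE 0.18, adjusted p = 0.512). *Lrp4* was 164, 200 and 194 CPM against 205, 289 and 211 CPM (0.34, SE 0.21, adjusted p = 0.569). Both pairs of groups were separate, but by little. *Lrp5*, whose groups overlapped, had a log2 fold change of 0.36 (SE 0.19, adjusted p = 0.514). *Fzd1* had 0.65 (SE 0.31, adjusted p = 0.490), from 15.9 ± 3.62 CPM to 24.9 ± 6.73 CPM.

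Downstream of the receptors, the differences did not stand clear of the replicates. *Ctnnb1* was 595, 647 and 600 CPM without and 605, 864 and 669 CPM with loading (log2 fold change 0.21, SE 0.17, adjusted p = 0.666). The feedback gene *Axin2* was 3.97, 3.92 and 7.01 CPM without and 8.20, 10.6 and 4.60 CPM with loading (0.67, SE 0.45, adjusted p = 0.604). Loaded replicates 1 and 2 were high and replicate 3 was within the nonloaded range. *Nkd2* had a log2 fold change of 0.27 (SE 0.30, adjusted p = 0.762) and *Lef1* of -0.03 (SE 0.25, adjusted p = 0.971).

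In all, 9 of 10 members had a higher fitted level with 2 weeks of loading (median log2 fold change 0.35), against 51.5% of the 15576 genes tested (median 0.01). Among the 10 members 1, *Lgr6*, reached an unadjusted p under 0.05, when 10.2% of all genes did in either direction and 6.16% as higher, a share near the background. With 1 library left out at a time the median ran from 0.25 to 0.45 and the count from 0 members, without vehicle loaded replicate 2, to 3. The groups of 4 of 10 members (*Lrp4*, *Lrp6*, *Lgr4* and *Lgr6*) did not overlap, all higher with loading, beside 17.8% of all genes in either direction and 8.08% as higher. No member and 0% of all genes had an adjusted p under 0.05, while 2 genes were called by DESeq2 and 2 by the likelihood ratio test of edgeR, none of them a member. The median of all genes tested moved with exon length in this comparison, from -0.19 in the shortest of 5 length classes to 0.19 in the longest, and 9 of the 10 members are in the longest 2 classes. With exon length in the fit the log2 fold change of *Lrp4* was 0.08 (SE 0.17, adjusted p = 0.913) and of *Lrp6* 0.10 (SE 0.12, adjusted p = 0.829), whereas *Lgr6* had 0.86 (SE 0.30, adjusted p = 0.652). All 10 osteocyte markers had a higher fitted level with loading (median log2 fold change 0.72, 3 at an unadjusted p under 0.05), and summed to between 7868 and 8514 CPM in the nonloaded and between 8168 and 24645 CPM in the loaded libraries. All 9 neutrophil markers were lower (median -0.53, 5 at an unadjusted p under 0.05), as were all 5 erythroid markers tested (median -0.70, 3 of them). The part of these cell types in the result was not tested.

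The second question is what L-BAIBA did without loading. Over 2 weeks no member reached an unadjusted p under 0.05 (9.23% of all genes did, and 0% passed after adjustment), and the median of the members was 0.16. It ran from 0.08 to 0.22 with 1 library left out at a time, when 0 to 2 members had an unadjusted p under 0.05. *Lgr4* came nearest, with 44.2, 63.4 and 60.3 CPM in L-BAIBA nonloaded tibiae, a log2 fold change of 0.38 (SE 0.18, adjusted p = 0.536). *Ctnnb1* was the 1 member whose groups did not overlap, beside 17.5% of all genes. Its L-BAIBA libraries at 658, 703 and 698 CPM all lay above the vehicle ones, by a log2 fold change of 0.16 (SE 0.17, adjusted p = 0.737). *Lef1* was 8.73, 9.23 and 9.88 CPM, at the lower edge of the vehicle range of 9.80 to 13.7 CPM (log2 fold change -0.39, SE 0.25, adjusted p = 0.594). Beside it, 9 of 10 B lineage markers were lower with L-BAIBA, 4 at an unadjusted p under 0.05, with a median of -0.44. Osteocyte markers were again higher, all 10 of 10 with a median of 0.70. Neither was tested as a part of the members' values.

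Loading and L-BAIBA together were set against untreated tibiae next. After 2 weeks no member had an unadjusted p under 0.05 (1.88% of all genes) and none had separate groups (7.36%). Although 9 of 10 fitted values were above 0, their median was 0.12 and turned to -0.04 without L-BAIBA loaded replicate 1, the library with the highest *Axin2* (12.3 CPM) and *Lef1* (16.3 CPM) of the experiment. *Axin2* was 4.11 and 3.93 CPM in the other two L-BAIBA loaded libraries, inside the untreated range.

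Compared with loading alone, the combination had lower fitted levels in 9 of 10 members (median -0.26, or -0.18 with exon length in the fit). None reached an unadjusted p under 0.05 (1.5% of all genes). The median of all genes tested moved with exon length, from 0.08 in the shortest of 5 length classes to -0.07 in the longest. *Lgr6* was 29.5, 15.1 and 27.6 CPM with the combination (log2 fold change -0.60, SE 0.31). *Lrp6* was the 1 member with separate groups (7.83% of all genes), at 85.6, 98.6 and 94.0 CPM, all just under the vehicle loaded libraries. Single libraries moved the median of the members in both directions. Without L-BAIBA loaded replicate 1 it was -0.39, with 4 members at an unadjusted p under 0.05. It was -0.12 without vehicle loaded replicate 2 and -0.18 without L-BAIBA loaded replicate 2 or 3, with 0 members in these 3 fits. Within L-BAIBA-treated mice, loading left 5 members higher and 5 lower (median 0.01, from -0.17 to 0.16 with 1 library left out), again with none at an unadjusted p under 0.05 (1.68% of all genes). There *Lef1* was the 1 member without overlap (5.21% of all genes), at 16.3, 12.3 and 11.3 CPM with loading, where the log2 fold change was 0.50 (SE 0.25). Fitted with mouse pools as fixed blocks it had 0.48 (SE 0.19, adjusted p = 0.704), then at an unadjusted p under 0.05, as were 6.86% of all genes in that fit.

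The interaction measures whether loading changed the members differently in L-BAIBA-treated and in vehicle mice. It was below 0 for 9 of 10 members over 2 weeks (median -0.37, or -0.30 with exon length in the fit). The median of all genes tested was -0.01. It moved with exon length, from 0.13 in the shortest of 5 length classes to -0.16 in the longest. Both R-spondin receptors reached an unadjusted p under 0.05, when 6.6% of all genes did. *Lgr6* had a difference of -1.02 on the log2 scale (SE 0.43) and *Lgr4* of -0.58 (SE 0.25), with an adjusted p of 0.724 for both. Their group means show the pattern. *Lgr6* was 19.4 ± 2.83 CPM untreated, 36.2 ± 12.2 CPM with loading, 25.7 ± 7.58 CPM with L-BAIBA and 24.1 ± 7.85 CPM with both (SD, n = 3). *Lgr4* was 43.2 ± 7.45, 55.6 ± 7.28, 56.0 ± 10.3 and 48.5 ± 2.33 CPM in the same order. Each treatment alone had a higher mean than untreated, and the combination a lower mean than each alone. The summed osteocyte markers followed the same pattern, with group medians of 8076 CPM untreated, 13368 CPM with loading, 13130 CPM with L-BAIBA and 10032.5 CPM with both. The interaction of these markers was below 0 for 9 of 10 (median -1.08, 4 at an unadjusted p under 0.05), and their part in the members' values was not tested. Leaving out 1 of the 12 libraries at a time, the interaction of *Lgr6* ran from -1.26 to -0.76 and kept an unadjusted p under 0.05 in 5 of 12 fits. That of *Lgr4* ran from -0.72 to -0.44 and kept it in 7. In these 12 fits the median of the members ran from -0.25, without vehicle loaded replicate 2, to -0.51, without L-BAIBA loaded replicate 1. The members at an unadjusted p under 0.05 numbered 0 in the first and 4 in the second.

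**Figure D2:**
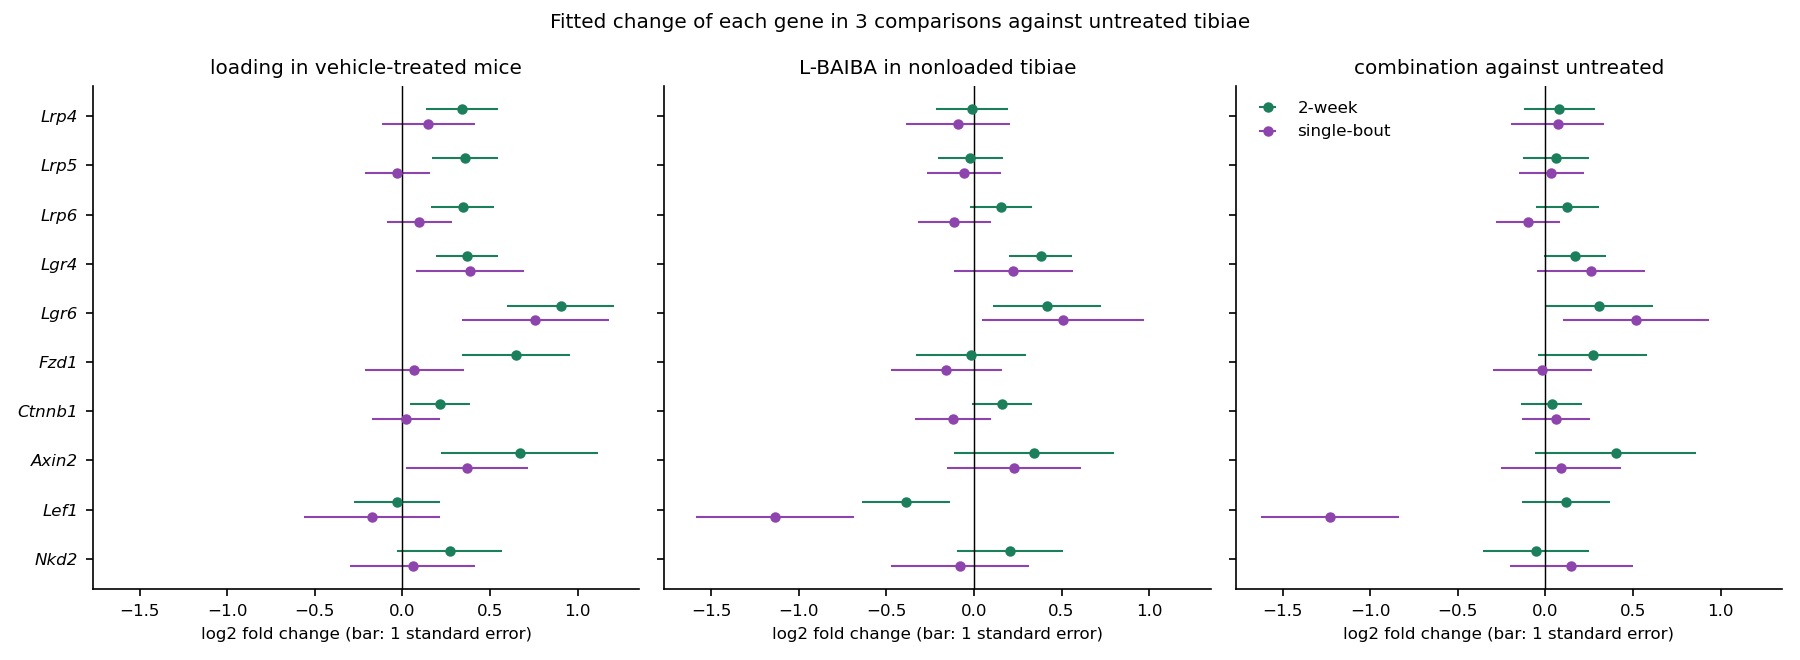
Fitted log2 fold change (x axis) of each gene, with 1 standard error to each side, for loading alone, L-BAIBA alone and the combination against untreated tibiae, in the 2-week (green) and single-bout (purple) experiment. *Lgr6* at 0.90 is the farthest to the right with 2 weeks of loading, and *Lef1* at -1.14 and -1.23 the farthest to the left with L-BAIBA after a single bout.

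A single bout of loading in vehicle-treated mice gave lower fitted values than 2 weeks for 9 of 10 members. The fitted level was higher in 8 of 10 (median 0.08, from -0.02 to 0.21 with 1 library left out), none reached an unadjusted p under 0.05 (1.19% of all genes; 1 did without vehicle nonloaded replicate 1) and none had separate groups (6.03%). *Lgr6* again had the largest of the members, at 23.2, 12 and 14.3 CPM nonloaded and 41.1, 23.8 and 18.9 CPM loaded (log2 fold change 0.76, SE 0.42). The groups overlapped, with nonloaded replicate 1 high and loaded replicate 3 low. These 2 libraries have no partner, and in both pools with 2 tibiae the loaded one was higher. In the fit with mouse pools as fixed blocks, which rests on those 2, *Lgr6* had a log2 fold change of 1.25 (SE 0.31, adjusted p = 0.441) and *Axin2* of 0.74 (SE 0.27, adjusted p = 0.457), both at an unadjusted p under 0.05. Of all genes, 10.6% were at that threshold in the fit with the block. *Axin2* had 0.37 (SE 0.35) without the block. All 10 osteocyte markers had a higher fitted level (median 0.79), summing to between 5220 and 9686 CPM nonloaded and between 7314 and 18285 CPM loaded, and their part was not tested.

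*Lef1* was the member that stood out after L-BAIBA in the single-bout experiment. It was 12.6, 12.1 and 11.4 CPM in vehicle nonloaded and 11.8, 11.2 and 9.11 CPM in vehicle loaded tibiae. In mice given L-BAIBA it was 3.93 and 7.02 CPM in nonloaded and 8.11, 1.97 and 5.26 CPM in loaded tibiae. Every L-BAIBA library lay below every vehicle library, loaded or not. Some pools gave 2 of these libraries, 1 from each tibia, so the libraries are not independent. In the 3 comparisons below, 22.8%, 22% and 21% of all genes had separate groups. The share of all genes separated over loaded and nonloaded tibiae at once is not given. The log2 fold change of *Lef1* was -1.14 for L-BAIBA in nonloaded tibiae (SE 0.45, n = 2 against 3, adjusted p = 0.956). It was -1.23 for the combination against untreated (SE 0.40, adjusted p = 0.239) and -1.06 for L-BAIBA in loaded tibiae (SE 0.40, adjusted p = 0.202). None passed after adjustment in edgeR, and the smallest adjusted p of any fit for *Lef1* was 0.071, from DESeq2. The first 2 comparisons share their control libraries and the last 2 their L-BAIBA libraries, so the 3 values are not independent. *Lef1* was the 1 of 10 members at an unadjusted p under 0.05 in each, beside 3.68%, 16.7% and 18.9% of all genes. DESeq2 called 5, 351 and 866 genes in these comparisons and the likelihood ratio test 4, 257 and 594, none of them a member. Without L-BAIBA nonloaded replicate 1 the value in nonloaded tibiae was -0.78 (SE 0.56), with an unadjusted p over 0.05. All 9 neutrophil markers had a higher level in each comparison, with medians of 0.43, 0.70 and 0.91, and their part was not tested.

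The other 9 members had values nearer to 0. For L-BAIBA in nonloaded tibiae their fitted values ran from -0.16 (*Fzd1*) to 0.51 (*Lgr6*), with *Lrp6* at -0.11 the only other member whose groups were separate (22.8% of all genes were). *Lrp6* was 74.7 and 86.9 CPM there against 87.5, 87.3 and 87.0 CPM, a gap of under 1 CPM at its nearest. For the combination, where 22% of all genes had separate groups, they ran from -0.10 (*Lrp6*) to 0.52 (*Lgr6*), and for L-BAIBA in loaded tibiae, where 21% did, from -0.28 (*Axin2*) to 0.09 (*Nkd2*). The medians over all 10 members were -0.09, 0.07 and -0.11, and each changed its sign with single libraries. In nonloaded tibiae it was 0.11 without L-BAIBA nonloaded replicate 1, with 0 members at an unadjusted p under 0.05. Without L-BAIBA loaded replicate 2 the medians for the combination and for L-BAIBA in loaded tibiae were 0.26 and 0.14. Without replicate 3 they were -0.27 and -0.42, with 0 of 10 members higher in each and with 1 and 3 at an unadjusted p under 0.05. Replicate 3 had 63.1 CPM of *Lgr4*, 37.8 CPM of *Lgr6* and 233 CPM of *Lrp4*, against 34.7 and 25.6, 19.6 and 13.3, and 146 and 103 CPM in replicates 1 and 2.

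Within L-BAIBA-treated mice, a single bout of loading left no member at an unadjusted p under 0.05 (3.44% of all genes) and none with separate groups (13.3%). The median was 0.06. It was -0.20 without L-BAIBA loaded replicate 3, when 0 of 10 members were higher, 0.29 without replicate 2, when all 10 were, and -0.05 without L-BAIBA nonloaded replicate 1. *Lef1* was lower in the loaded tibia of both pools. With the pool as a fixed block its log2 fold change was -0.68 (SE 0.21, adjusted p = 0.893), against -0.09 (SE 0.44) without. The unadjusted p with the block was under 0.05, as for 5.39% of all genes in that fit. In these 2 pools B lineage markers summed to 60.4 and 200 CPM in the loaded and to 56.5 and 216 CPM in the nonloaded tibia. The interaction had an unadjusted p under 0.05 in no member (2.01% of all genes), with *Lgr6* at -0.75 (SE 0.62) and a median over the members of 0.04. That median was -0.29 without L-BAIBA loaded replicate 3, the library that stands apart in osteoblast markers, with 9 of 10 members below 0. *Lgr6* (-1.27, SE 0.54) and *Lgr4* (-0.80, SE 0.34) were then at an unadjusted p under 0.05 (adjusted p = 0.992 for both). It was 0.23 without replicate 2 and -0.23 without L-BAIBA nonloaded replicate 1, with 0 members at that threshold in either fit. As over 2 weeks, *Lgr6* and *Lgr4* had the mean of the combination no higher than that of loading alone, at 23.6 ± 12.7 against 27.9 ± 11.6 CPM and 41.1 ± 19.6 against 45 ± 11.3 CPM, well within the spread.

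B lineage markers also had their lowest sums of the series in single-bout L-BAIBA libraries. All 10 of 10 were lower with L-BAIBA in single-bout nonloaded tibiae, 3 of them at an unadjusted p under 0.05, and their median log2 fold change was -1.24. For the combination all 10 were lower (median -0.74), none at an unadjusted p under 0.05, and in loaded tibiae 9 were (median -0.72). Their summed level was 288 to 324 CPM in vehicle nonloaded, 260 to 346 CPM in vehicle loaded, 56.5 and 216 CPM in L-BAIBA nonloaded and 60.4 to 289 CPM in L-BAIBA loaded libraries, and no marker was at 0 in any. *Ebf1*, their most abundant gene, lay between 52.4 and 70.1 CPM in vehicle and between 19.7 and 61.3 CPM in L-BAIBA libraries. Over the 23 libraries, centred within each experiment, *Lef1* followed this sum with a Pearson r of 0.87 and a Spearman rho of 0.75. Without the 2 libraries farthest from the median of the sum, which are those of 1 pool, r was 0.74. It was 0.62 over the 2-week and 0.91 over the single-bout libraries. For the T lineage markers r was 0.44 over the 23 libraries. The relation was not particular to the B lineage in the single-bout libraries. There *Lef1* also had an r of -0.88 with neutrophil, 0.86 with adipocyte and 0.71 with skeletal muscle markers. Over the 2-week libraries these values were 0.08, 0.17 and -0.19. The 23 libraries come from 14 mouse pools and are not independent, so no p is given. Without that pool, a choice made after seeing the data, the log2 fold change of *Lef1* was -0.78 (SE 0.27) in nonloaded tibiae, where 1 L-BAIBA library was then left. It was -0.85 (SE 0.21) for the combination and -0.68 (SE 0.21) for L-BAIBA in loaded tibiae. These last 2 had an unadjusted p under 0.05 (adjusted p = 0.448 and 0.363), beside 10.9% and 12.1% of all genes. In L-BAIBA loaded replicate 1, B lineage markers summed to 289 CPM, within the vehicle range, and *Lef1* was 8.11 CPM, below it. The part of B lineage RNA in the difference was not tested.

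**Figure D3:**
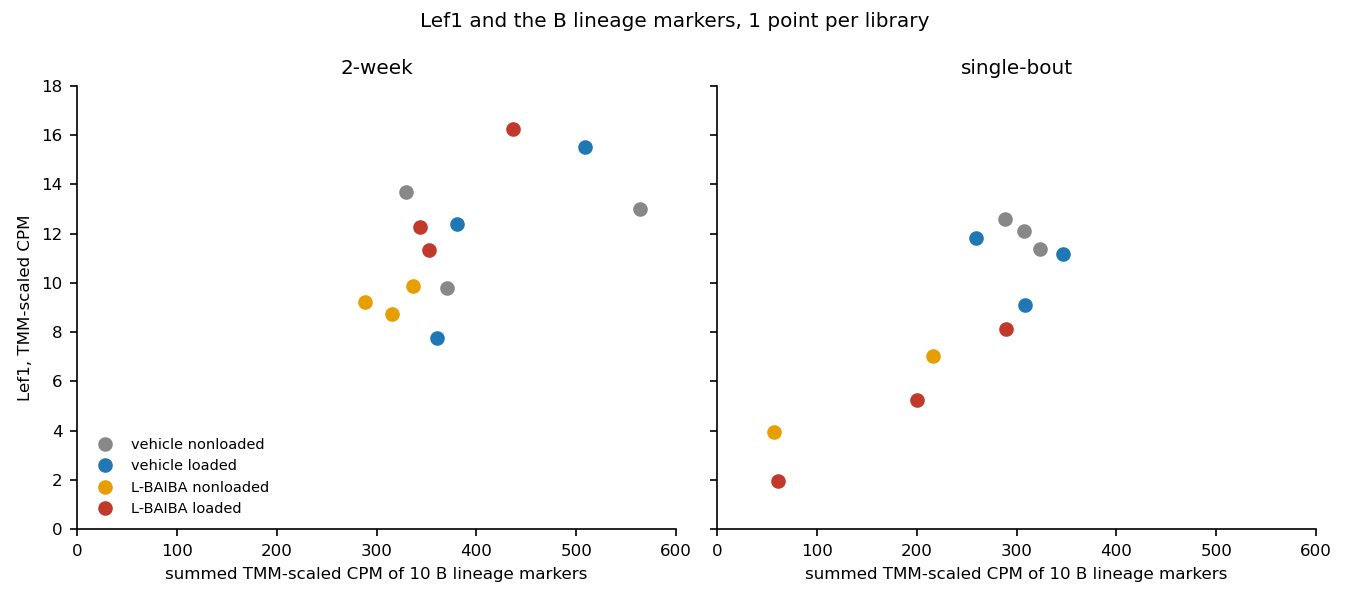
*Lef1* (y axis, TMM-scaled CPM) against the summed TMM-scaled CPM of 10 B lineage markers (x axis), with 1 point per library, coloured by group, for the 2-week (left) and single-bout (right) experiment. The 2 libraries of 1 single-bout L-BAIBA pool are at the lower left, at 56.5 and 60.4 CPM of markers and 3.93 and 1.97 CPM of *Lef1*.

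For 9 of the 14 mouse pools both tibiae were sequenced, which compares loaded with nonloaded bone of the same mice. *Lgr6* was higher in the loaded tibia in 4 of 4 vehicle pools, by 1.25 and 0.19 on the log2 scale after 2 weeks and by 1.78 and 0.73 after a single bout. In the L-BAIBA pools it was higher in 2 of 3 and 1 of 2, with differences of 0.70, -1.15 and 0.11 and of -0.41 and 0.36. *Lrp4*, *Lrp5*, *Lrp6*, *Lgr4*, *Fzd1*, *Axin2* and *Nkd2* were likewise higher in the loaded tibia in all 4 vehicle pools, and *Ctnnb1* in 3. In all, 8 of 10 members were higher in every vehicle pool, as were 16.1% of all genes tested. In the L-BAIBA pools *Lrp4*, *Lrp6*, *Lgr4*, *Axin2* and *Nkd2* were higher in 1 of 3 after 2 weeks and in 1 of 2 after a single bout, *Lrp5* in 2 of 3 and 1 of 2, and *Fzd1* in 2 of 3 and 2 of 2. *Lef1* went by experiment instead. It was higher in the loaded tibia in 5 of 5 pools after 2 weeks, by 0.20 to 0.90, and lower in 4 of 4 after a single bout, with log2 differences of -0.04 and -0.03 in the vehicle and -1.0 and -0.42 in the L-BAIBA pools. Of all genes, 4.64% were higher in every 2-week pool, 9.3% were lower in every single-bout pool and 0.961% were both.

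**Figure D4:**
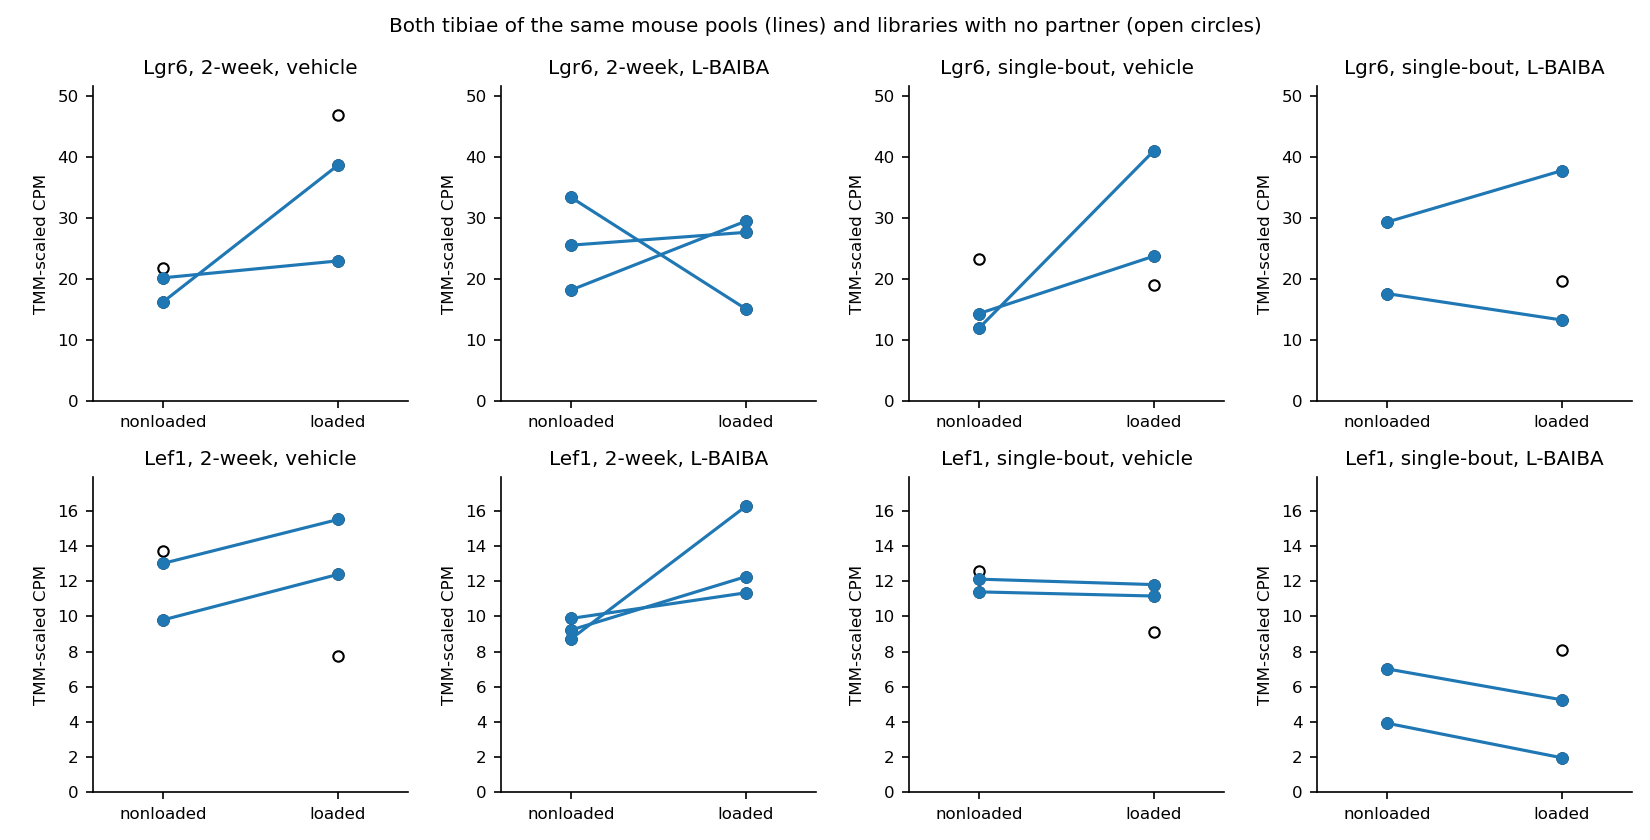
*Lgr6* (top row) and *Lef1* (bottom row) in TMM-scaled CPM (y axis, from 0) in nonloaded and loaded tibiae, by experiment and treatment; a line joins the 2 tibiae of a mouse pool and open circles are libraries with no partner. All 4 vehicle lines of *Lgr6* point up. The lines of *Lef1* point up in the 2-week and down in the single-bout panels, though barely down in single-bout vehicle.

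Set against each other, the experiments gave 1 member a difference at an unadjusted p under 0.05. The difference between the loading effects of a single bout and of 2 weeks was below 0 for 9 of 10 members (median -0.22), with none at an unadjusted p under 0.05 (2.42% of all genes) and the lowest at -0.60 for *Fzd1* (SE 0.44). This median was -0.15 with exon length in the fit, and ran from -0.37 to -0.03 with 1 library left out. It was nearest to 0 without single-bout vehicle loaded replicate 3, when 3 members were above 0, and -0.10 without 2-week vehicle loaded replicate 2. For L-BAIBA in nonloaded tibiae it was likewise below 0 for 9 of 10 (median -0.18, none at an unadjusted p under 0.05, beside 7.28% of all genes), the lowest being *Lef1* at -0.78 (SE 0.53). Here the median was -0.04 without single-bout L-BAIBA nonloaded replicate 1, with 4 members above 0, and -0.04 without 2-week L-BAIBA nonloaded replicate 2, with 5 above 0. Without single-bout vehicle nonloaded replicate 1 it was -0.09, and over all such fits it ran from -0.36 to -0.04. With exon length in the fit it was -0.14. For the combination, *Lef1* was the 1 member at an unadjusted p under 0.05 (10.4% of all genes), with a difference of -1.33 (SE 0.49, adjusted p = 0.424). The median over the members was -0.01 for the combination, -0.34 without single-bout L-BAIBA loaded replicate 3 and 0.13 without replicate 2. The experiments were loaded, treated and sequenced apart, which cannot be told apart from the number of bouts. Nor can it be told apart from the time on L-BAIBA, 5 days against 2 weeks. The combination effect on *Lef1* was 0.12 over 2 weeks and -1.23 after a single bout, and without the single-bout pool lowest in B lineage markers the difference was -0.95 (SE 0.36, adjusted p = 0.856).

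The remaining genes of the pathway, from lists of receptors, cytoplasmic transducers, nuclear partners and targets, give the setting. With 2 weeks of loading 66 of 76 tested had a higher fitted level and 19 an unadjusted p under 0.05, all higher (median 0.29), beside 6.16% of all genes higher at that threshold, but none passed adjustment. In this comparison the median of all genes moved with exon length, as given above, and it did so in other comparisons too. By role the 19 were 5 of 18 receptors, 4 of 22 transducers, 5 of 15 nuclear partners and 5 of 21 targets. *Fzd3*, a Frizzled receptor, was 26.4 ± 14.5 against 11.1 ± 2.95 CPM (log2 fold change 1.25, SE 0.40, adjusted p = 0.475). *Tcf7l2*, a DNA-binding partner of β-catenin, had 0.69 (SE 0.22, adjusted p = 0.475). *Bcl9l*, which links β-catenin to its co-activators, had 0.66 (SE 0.23, adjusted p = 0.475). After a single bout of loading 40 of 75 were higher, with 2 at an unadjusted p under 0.05 (1.19% of all genes), the Dishevelled-binding *Dact2* (1.21, SE 0.47) and *Tnfrsf11b* (1.13, SE 0.50), which encodes osteoprotegerin.

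With L-BAIBA alone over 2 weeks 4 of 76 had an unadjusted p under 0.05, all higher, a smaller share than the 9.23% of all genes. The 3 with the smallest p were the co-repressor *Tle1* (log2 fold change 0.59, SE 0.23), the receptor *Fzd2* (0.93, SE 0.37) and *Tnfrsf11b* (1.12, SE 0.47), at 133 ± 49.3 against 60.8 ± 8.73 CPM. Over 2 weeks the combination gave 2 (1.88% of all genes), the homeobox gene *Prox1* (2.39, SE 1.04, from 0.201 ± 0.101 CPM) and the secreted matrix protein gene *Wisp2* (0.64, SE 0.28). The interaction gave 1 above and 10 below 0 of 76 (6.6% of all genes), led by *Tnfrsf11b* (-1.79, SE 0.65), *Fzd2* (-1.36, SE 0.51) and *Dact2* (-1.90, SE 0.74). With the combination against loading alone *Dact3* (-0.74, SE 0.31) and *Bcl9l* (-0.50, SE 0.23) had lower fitted levels (1.5% of all genes), and with loading in L-BAIBA-treated mice the TGF-β pseudoreceptor *Bambi* (-0.60, SE 0.24) and the LRP5 and LRP6 antagonist *Dkk1* (-0.59, SE 0.26), beside 1.68% of all genes.

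After a single bout, L-BAIBA in nonloaded tibiae gave 1 higher and 2 lower of 75 (3.68% of all genes), the co-activators *Pygo2* (0.31, SE 0.13) and *Cdc73* (-0.25, SE 0.11), and *Lgr5* (-1.20, SE 0.53), the third R-spondin receptor. The combination against untreated gave 4 higher and 3 lower of 75, and the combination against loading alone 8 higher and 2 lower. Both counts are smaller shares than the 16.7% and 18.9% of all genes at an unadjusted p under 0.05 in these comparisons. *Wisp2*, *Csnk1e* and *Ctnnbip1* had the smallest p in both. *Wisp2* was 19.4 ± 6.99 CPM with the combination against 10.7 ± 1.80 CPM untreated and 10.1 ± 2.29 CPM with loading. *Csnk1e*, a casein kinase of the pathway, had 0.39 (SE 0.13) and 0.41 (SE 0.13), and *Ctnnbip1*, which keeps β-catenin off TCF factors, 0.50 (SE 0.17) and 0.64 (SE 0.18). The 2 comparisons share their L-BAIBA loaded libraries. *Musk*, a muscle receptor kinase with a Frizzled-like domain, had a lower fitted level with loading in L-BAIBA-treated mice (-1.67, SE 0.73; 3.44% of all genes were at that threshold) at under 1 CPM in both groups. No pathway gene passed an adjusted p under 0.05 in any of these comparisons.

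Across the 23 libraries the members, *Lef1* apart, went up and down together. Of the 45 pairs all had a Pearson r of log2 CPM above 0 (median 0.62), after centring on the mean of each experiment. The 36 pairs without *Lef1* had a median of 0.68, from 0.31 (*Lgr4* and *Fzd1*) to 0.85, reached by *Lgr4* and *Lgr6* and by *Lrp4* and *Lrp5*. The 9 pairs with *Lef1* had a median of 0.19 and none over 0.45. The experiments differed in these pairs. Over the 2-week libraries 5 of the 9 were below 0, with the lowest at -0.56 (*Ctnnb1*) and -0.42 (*Lgr4*), and over the single-bout libraries none was, with the highest at 0.73 (*Lrp6*) and 0.66 (*Fzd1*). The libraries share depth, composition and, within a pool, mice, so these are descriptions and carry no p. *Lgr6* followed the summed osteocyte markers with an r of 0.83 (rho 0.85), 0.70 over the 2-week and 0.97 over the single-bout libraries, and still 0.74 without the 2 libraries farthest from the median. *Axin2* (0.78), *Nkd2* and *Ctnnb1* (0.72 each) and *Lgr4* (0.70) did so too, whereas *Lef1* had -0.02. For *Lgr6*, *Axin2*, *Nkd2* and *Lgr4* the osteocyte list had the highest r of the marker lists. Other members came closer to other lists. *Ctnnb1* had 0.74 with periosteal, tendon and joint-surface markers. *Lrp4* and *Lrp6* had 0.64 and 0.59 with osteoblast against 0.52 and 0.32 with osteocyte markers, and *Fzd1* had 0.79 with adipocyte against 0.55 with osteocyte markers. Every member had a negative r with the neutrophil markers, from -0.50 (*Nkd2*) to -0.79 (*Lrp6*).

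The genes most like each member over the 23 libraries differed in kind. *Lgr6* was closest to *Fosb* (r = 0.97), an AP-1 transcription factor, and then to *Sdc3* (0.97) and *Pou6f1* (0.97). *Lgr4* was closest to *Wisp1* (0.96), itself a β-catenin target, then *Zfp532* (0.94) and *Plod2* (0.93), a collagen lysyl hydroxylase. *Fzd1* was closest to *Nid1* (0.95), *Dact1* (0.93) and *Tenm4* (0.92), and *Ctnnb1* to *Pard6g* (0.97), *Maged1* (0.93) and *Sema3b* (0.93). *Lrp4* had *Sdk2*, *Sh3pxd2b* and *Kirrel* (0.93 each), *Lrp5* had *Hspg2* (0.93), which encodes perlecan, *Kank2* and *Rtn4rl1* (0.91 each), and *Lrp6* had *Msi2* (0.94), *Zfp318* (0.92) and *Zfp275* (0.89). *Axin2* had *Dag1*, *Vgll4* and *Zhx3* (0.90 each), and *Nkd2* had *Plekha5* (0.87), *Cadps2* (0.86) and *Plcl1* (0.86). *Lef1* had *Dtx1*, *Bach2* and *Blnk* (0.87 each), of which *Bach2* and *Blnk* are known from B cells. For *Bach2* r was 0.68 over the 2-week and 0.91 over the single-bout libraries.

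**Figure D5:**
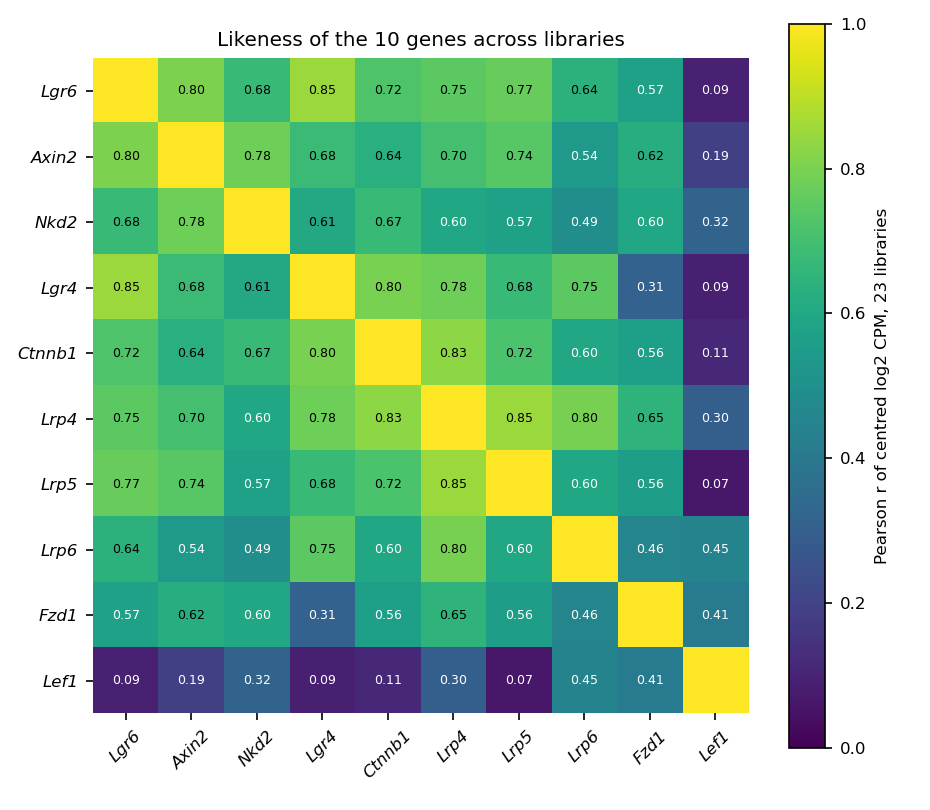
Pearson r (colour and number) of log2 CPM, centred within each experiment, for every pair of the 10 genes over the 23 libraries. The block of 9 genes holds values from 0.31 to 0.85, and the row of *Lef1* from 0.07 to 0.45.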

How the data were processed

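RNA was sequenced with poly(A) selection (KAPA mRNA HyperPrep). The paper states only a lower limit of RNA integrity for all samples, and no value per library entered the fits. Per the labels and the study's methods, the authors used STAR 2.5.2b on mm10 for alignment and counted reads per gene with featureCounts (Subread 1.5.1), set for the reversed strand of a strand-specific library. The deposited files, 1 for each experiment, hold raw counts per gene beside exon length. Columns of 23 per-sample normalized values and those of the authors' own comparisons (fold changes and p-values) were not used. The experiments were sequenced separately and fitted separately, except for the differences between them, which used both tables in 1 fit with 8 groups over genes tested in both.

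Genes with over 0.5 CPM in at least 4 libraries were kept. Counts were TMM-scaled, and edgeR 4.0.16 in R 4.3.3 gave log2 fold changes and p-values (quasi-likelihood test, two-sided, Benjamini-Hochberg over all genes tested, threshold 0.05). The fit had 1 mean per group and no block. No mice are shared between pools, and p-values measure the spread between the pools of a group. With no block, loaded and nonloaded libraries of the same mice were taken as independent, so the spread of differences within pools was not measured. Loaded and nonloaded libraries share their mice in 9 pools, as the mouse numbers in the labels show. Deviations of the 2 tibiae of a pool from their group means correlated at r = 0.16 to 0.56 in the 5 2-week and 0.16 to 0.47 in the 4 single-bout pools. Alternatives were the pool as a fixed block in edgeR or a random one in limma 3.58.1, DESeq2 1.42.0, edgeR's likelihood ratio test, other scalings and filters, exon length in the offsets, and each library left out. Log2 CPM for correlations used a prior count of 2.

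The 10 genes and all gene lists were chosen with earlier results of these data known. Other pathway genes were named where they had the smallest p under 0.05, at most 3 a comparison. The fits were tested on simulated data.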

Additional observations from a re-analysis of the deposited data

Results flagged for a closer look

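Effects of the same treatment differed between groups for 3 values. The loading effect over 2 weeks was lower in L-BAIBA-treated than in vehicle mice for *Lgr4* (interaction -0.58 on the log2 scale, SE 0.25) and *Lgr6* (-1.02, SE 0.43). The combination effect on *Lef1* was lower after a single bout with 5 days of L-BAIBA than after 2 weeks of both (-1.33, SE 0.49). The unadjusted p of all 3 was under 0.05, but none passed the correction over all genes in edgeR's quasi-likelihood test (adjusted p = 0.724, 0.724 and 0.424).

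By sign alone, pools also went opposite ways for *Lef1*. It was higher in the loaded tibia in 2 of 2 vehicle pools after 2 weeks and in 0 of 2 after a single bout. The log2 differences were 0.25 and 0.34 after 2 weeks, but only -0.04 and -0.03, close to no change, after a single bout. The corresponding difference between the experiments, tested over all libraries, was -0.16 (SE 0.49, adjusted p = 1.00). In L-BAIBA pools it was higher in 3 of 3 after 2 weeks and in 0 of 2 after a single bout, and this difference was not tested.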

How the results depend on the processing

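No member had an adjusted p under 0.05 under any alternative in any of the 15 comparisons, and the smallest was 0.071 (*Lef1*, single-bout combination, DESeq2). In comparisons whose calls are not given in the report, 0 to 6 genes were called by DESeq2 and 0 to 6 by the likelihood ratio test, none a member. The median of the members for 2 weeks of loading ran from 0.24 with exon length in the fit to 0.37, and from 0.25 to 0.45 with 1 library left out. *Lgr6* ran from 0.67 to 1.13 with 1 library left out (unadjusted p under 0.05 in 5 of 6 fits, not without vehicle loaded replicate 2). *Lef1* in the single-bout experiment ran from -1.61 to -0.78 in nonloaded tibiae (2 of 5 fits), from -1.73 to -0.85 for the combination (6 of 6) and from -1.55 to -0.68 in loaded tibiae (4 of 6). The libraries without which the unadjusted p passed 0.05 were L-BAIBA nonloaded replicate 1 and vehicle nonloaded replicates 1 and 2 in nonloaded, and vehicle loaded replicates 1 and 2 in loaded tibiae. With 1 of the 2 L-BAIBA nonloaded libraries left out, the lone one is assumed to vary like the other groups.

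Where limma took mouse pools as a random block, 4 members had an unadjusted p under 0.05 for 2 weeks of loading (*Lrp6*, *Lgr4*, *Lgr6* and *Fzd1*, with 16.5% of all genes) against 1 without the block in limma (9.16%). As a fixed block in edgeR, which for vehicle rests on the 2 pools with both tibiae, *Lrp6* had 0.40 (adjusted p = 0.323) and *Lgr6* 0.72 (adjusted p = 0.407), at an unadjusted p under 0.05 for *Lrp6* and over it for *Lgr6*. In that fit 13.5% of all genes were at an unadjusted p under 0.05. The pairing changed no adjusted call. Medians near 0 turned with single libraries, as given in the report. *Axin2* and *Lef1*, with as few as 29 and 59 reads in a library, are the members most limited by depth.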
